A study of Mus musculus with 6 samples.

Results

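The genes described are Msln, Dpep1, Enpp1, Bglap3 and Clvs1, 5 of the 43629 genes in the count table of cultured mouse keratinocytes with and without the DNA methyltransferase DNMT1. They were chosen by their read counts, which were low in every control library and high in every Dnmt1Δ/Δep library. That contrast between the groups is therefore how they were chosen, and their own change is given as a description with no test. The rule names no numeric limit. All 5 passed the filter on low counts, Dpep1 through the Dnmt1Δ/Δep libraries.

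The libraries were made from poly(A)-selected RNA of epidermal keratinocytes isolated at P3 from female mice and kept in culture for 5 days by the labels, with 1 mouse per library. A figure legend of the study gives a shorter culture time. In the 3 Dnmt1Δ/Δep mice, a Cre recombinase under the Keratin 5 promoter had deleted both floxed Dnmt1 alleles in the epidermis from embryonic life onward. The 3 control mice carried floxed Dnmt1 alleles without Cre, either on both chromosomes or on one, and were not treated in any other way. Cre was active before birth and the cells were dissociated and cultured, so a change seen here may have arisen in the skin or in the dish, and these cannot be told apart.

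DNMT1 copies CpG methylation onto the new DNA strand at replication, and many tissue-restricted genes are silent in cells where their promoters are methylated. Msln encodes mesothelin, a glycoprotein held on the cell surface by a glycosylphosphatidylinositol (GPI) anchor and typical of mesothelial cells. Dpep1 encodes a GPI-anchored dipeptidase of the kidney brush border that cleaves cysteinylglycine and leukotriene D4. Enpp1 encodes a transmembrane ectoenzyme that splits extracellular ATP into AMP and pyrophosphate and also hydrolyzes the cyclic dinucleotide cGAMP. Bglap3 belongs to the osteocalcin gene cluster and encodes a secreted osteocalcin-related protein. Clvs1 encodes clavesin 1, a Sec14-type lipid-binding protein of clathrin-coated vesicles and endosomes, so it is neither a surface nor a secreted protein. The other 4 products are on the cell surface (Msln, Dpep1, Enpp1) or secreted (Bglap3).

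Promoter sequence was at hand for 3 of the 5 genes, Dpep1, Enpp1 and Bglap3. It is shown because the enzyme that was deleted acts on CpG dinucleotides, whose number differs between these promoters. Each window runs from 250 bases before to 50 bases after an annotated RefSeq transcript start (GRCm38.p6) and is written 5′ to 3′ on the strand of the gene, with CpG dinucleotides in capitals. The window of Dpep1 lies at chr8:123185985-123186284 on the plus strand and holds 9 CpG. The window of Enpp1 lies at chr10:24712110-24712409 on the minus strand and holds 22 CpG. Bglap3 has 3 annotated starts on the minus strand, and the first and last of them are shown, at chr3:88372692-88372991 (8 CpG) and chr3:88369782-88370081 (7 CpG).
Dpep1: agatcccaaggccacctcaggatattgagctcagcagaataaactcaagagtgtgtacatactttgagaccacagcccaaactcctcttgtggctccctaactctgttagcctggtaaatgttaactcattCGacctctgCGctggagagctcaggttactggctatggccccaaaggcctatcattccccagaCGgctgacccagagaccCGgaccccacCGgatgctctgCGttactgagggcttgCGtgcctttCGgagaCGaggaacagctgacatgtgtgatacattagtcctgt
Enpp1: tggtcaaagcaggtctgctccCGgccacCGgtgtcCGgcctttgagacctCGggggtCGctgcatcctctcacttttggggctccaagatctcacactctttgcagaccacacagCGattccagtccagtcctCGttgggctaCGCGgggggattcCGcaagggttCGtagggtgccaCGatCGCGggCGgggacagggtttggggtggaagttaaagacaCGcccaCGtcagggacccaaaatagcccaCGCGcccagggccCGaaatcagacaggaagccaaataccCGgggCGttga
Bglap3, first start: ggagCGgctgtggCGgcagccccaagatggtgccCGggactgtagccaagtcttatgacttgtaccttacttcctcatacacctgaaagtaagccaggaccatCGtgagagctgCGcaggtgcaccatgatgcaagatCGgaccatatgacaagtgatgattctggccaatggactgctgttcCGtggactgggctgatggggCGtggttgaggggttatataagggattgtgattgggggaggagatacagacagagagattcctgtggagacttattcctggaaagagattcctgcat
Bglap3, last start: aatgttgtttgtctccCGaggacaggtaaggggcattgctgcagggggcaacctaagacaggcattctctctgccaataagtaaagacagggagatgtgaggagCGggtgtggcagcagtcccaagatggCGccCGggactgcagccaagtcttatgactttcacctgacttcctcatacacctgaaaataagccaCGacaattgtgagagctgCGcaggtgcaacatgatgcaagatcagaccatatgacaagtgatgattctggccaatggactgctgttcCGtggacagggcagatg

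The 2 Bglap3 windows shown share a similar stretch. Bases 1 to 200 of the first aligned with bases 101 to 300 of the last at 92.0% identity. One or both of these windows resembled, in some stretch, promoter windows of 17 other genes on several chromosomes, with 72.2% to 96.6% identity over 29 to 241 bases (blastn, expect value at most 1e-05). Of those 17 genes, 2 (Pard3 and Gm37116) had enough reads to be tested and neither was called as changed, with log2 fold changes of 0.15 and 0.14. The windows of Dpep1 and Enpp1 resembled no other window at that limit. The window of the Bglap3 start between the other two (chr3:88371430-88371729) held 7 CpG.

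Gene reads per library lay between 53433121 and 115526598. Levels are given as CPM, which are reads scaled to a common library size after TMM normalization. A gene was called upregulated or downregulated where its level differed at least 2-fold between the groups and its adjusted p did not exceed 0.05, with edgeR's quasi-likelihood test and Benjamini-Hochberg adjustment over the 16829 genes that passed the filter. By that rule 6.03% of the tested genes were upregulated and 0.392% downregulated, and their median log2 fold change was -0.00090. The deleted gene Dnmt1 fell from 394, 379 and 324 CPM in the control libraries to 49.7, 54.3 and 50.7 CPM without DNMT1 (adjusted p = 8.1e-05, edgeR). Reads of a whole culture do not show whether a gene rose in all cells or in a share of them, and a change in cell number and a change in RNA per cell cannot be told apart.

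Msln (ENSMUSG00000063011, chromosome 17, 25748613 to 25754378, minus strand, GRCm38) was the most abundant of the 5 in both groups. The control libraries had 10.7, 12.9 and 8.66 CPM and the Dnmt1Δ/Δep libraries 303, 272 and 205 CPM. The groups were far apart, with the lowest Dnmt1Δ/Δep library 15.9-fold above the highest control library. The means were 10.7 ± 2.11 and 260 ± 49.8 CPM (SD, n = 3), a ratio of 24.2, and the fitted log2 fold change was 4.60 (standard error 0.22). Msln was not silent in control keratinocytes: between 465 and 1255 reads fell on it per control library, and its control mean exceeded that of 46.2% of tested genes. In Dnmt1Δ/Δep cells it exceeded 96.0% of them, and its gain of 249 CPM ranked 32 among the 16829 tested genes.

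Dpep1 (ENSMUSG00000019278, chromosome 8, 123186242 to 123201812, plus strand) was the member with the fewest reads in the controls. Control libraries had 0.0529, 0.0513 and 0.0931 CPM, whereas Dnmt1Δ/Δep libraries had 13.7, 10.3 and 10.5 CPM. Every control library held exactly 5 reads, so the control values differ only through library size, while the Dnmt1Δ/Δep libraries held 818, 890 and 1241 reads. The means of 0.0657 ± 0.0237 and 11.5 ± 1.92 CPM (SD, n = 3) give a ratio of 175, the largest of the 5, with a fitted log2 fold change of 7.50 (standard error 0.30). Its lowest Dnmt1Δ/Δep library was 111-fold above its highest control library. A ratio against so few reads is imprecise: within the replicate pairs, which shared a sequencing lane, it was 260, 201 and 113.

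Enpp1 (ENSMUSG00000037370, chromosome 10, 24637914 to 24712159, minus strand) had the smallest change and the tightest replicates. The control libraries had 2.77, 2.49 and 2.64 CPM and the Dnmt1Δ/Δep libraries 28.3, 27.0 and 33.1 CPM. The means were 2.64 ± 0.138 and 29.5 ± 3.20 CPM (SD, n = 3), a ratio of 11.2 with a fitted log2 fold change of 3.48 (standard error 0.14). Its coefficient of variation was 5.25% among controls and 10.9% among Dnmt1Δ/Δep libraries, the lowest of the 5 in both groups, and the ratios within the 3 pairs were 10.2, 10.8 and 12.5. The lowest Dnmt1Δ/Δep library stood 9.77-fold above the highest control library.

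Bglap3 (ENSMUSG00000074489, chromosome 3, 88368616 to 88372743, minus strand) had the second highest level in Dnmt1Δ/Δep cells. The control libraries had 1.004, 0.482 and 0.800 CPM and the Dnmt1Δ/Δep libraries 62.2, 49.8 and 49.3 CPM. The control libraries spread by 2.08-fold, the widest range of the 5 genes, on 43 to 95 reads each, and the Dnmt1Δ/Δep libraries by 1.26-fold. The means were 0.762 ± 0.263 and 53.8 ± 7.32 CPM (SD, n = 3), a ratio of 70.5 and a fitted log2 fold change of 6.14 (standard error 0.29). The ratios within pairs were 61.9, 103 and 61.6, where the highest is that of the lowest control library.

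Clvs1 (ENSMUSG00000041216, chromosome 4, 9269293 to 9451691, plus strand) had 0.137, 0.164 and 0.130 CPM in the control libraries. In the Dnmt1Δ/Δep libraries it had 13.1, 10.5 and 16.2 CPM, which is 780, 910 and 1914 reads against 13, 16 and 7 in the controls. The means were 0.144 ± 0.0179 and 13.3 ± 2.85 CPM (SD, n = 3), a ratio of 92.2 and a fitted log2 fold change of 6.50 (standard error 0.26). The groups stood 64.1-fold apart at their nearest libraries, and the Dnmt1Δ/Δep values varied by 1.54-fold, the most of the 5. The end of Clvs1 overlaps Asph, which lies on the other strand, and 36.3% of the annotated exon sequence of Clvs1 is shared in this way. The sources do not state whether reads were counted by strand, so reads from that stretch may have been assigned to neither gene or to either.

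**Figure D1:**
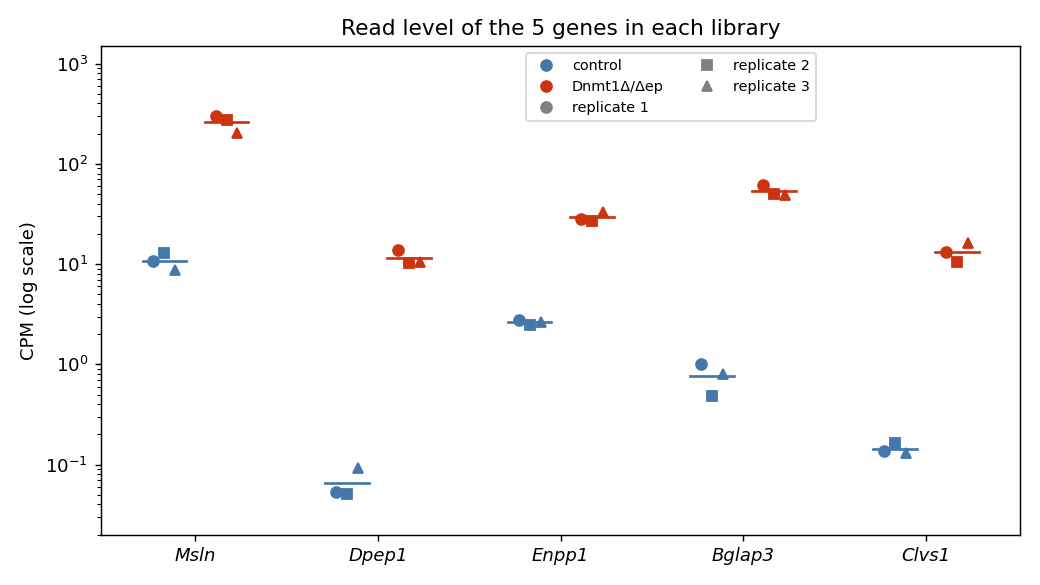
CPM on a log axis of Msln, Dpep1, Enpp1, Bglap3 and Clvs1 in the 3 control (blue) and 3 Dnmt1Δ/Δep (red) libraries. Symbols mark the replicate number and lines the group means, and for each gene all red points lie above all blue points, by 9.77-fold (Enpp1) to 111-fold (Dpep1) at the nearest.

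For all 5 genes every Dnmt1Δ/Δep library was above every control library, which is the pattern by which they were listed and which 18.2% of the tested genes also showed. The size of change was not extreme among upregulated genes. Ranked by fitted log2 fold change among the 1014 genes called upregulated, Dpep1 stood at 84, Clvs1 at 131, Bglap3 at 142, Msln at 237 and Enpp1 at 346. The order by level was another one, with Msln 12th, Bglap3 at 79, Enpp1 at 123, Clvs1 at 210 and Dpep1 at 230 by mean CPM in Dnmt1Δ/Δep cells.

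Among the Dnmt1Δ/Δep libraries the order differed from gene to gene. Replicate 1 was the highest of the 3 for Msln, Dpep1 and Bglap3, at 116%, 119% and 116% of the group mean. Replicate 3 was the highest for Enpp1 and Clvs1, at 112% and 122%, and the lowest for Msln and Bglap3, at 79.0% and 91.7%. Among controls, replicate 2 was highest for Msln (120%) and Clvs1 (114%) and lowest for Bglap3 (63.3%). No library was the highest or the lowest for all 5 genes.

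Levels of different genes were compared per kilobase of annotated exon (RPKM), since the exon length ranged from 2486 bases in Dpep1 to 10257 bases in Enpp1. In Dnmt1Δ/Δep cells the order was Msln (84.8 ± 16.2 RPKM), Bglap3 (20.5 ± 2.78), Dpep1 (4.63 ± 0.772), Enpp1 (2.87 ± 0.312) and Clvs1 (1.75 ± 0.377; SD, n = 3). No 2 neighbours in that order overlapped between libraries when the full exon length was used. With Clvs1 scaled to its 4822 bases of exon not shared with another gene, it came to 2.75 ± 0.592 RPKM and overlapped Enpp1. In controls Msln led with 3.50 ± 0.689 RPKM. Bglap3 (0.183 to 0.382) and Enpp1 (0.243 to 0.270) overlapped there, as did Dpep1 (0.0206 to 0.0374) and Clvs1 (0.0172 to 0.0217).

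The 5 genes lie on 5 different chromosomes, and the genes around them were compared next. The 3 nearest tested genes on each side gave 30 neighbours, which the choice of members did not use. Of these, 1 was upregulated (3.33%, against 6.03% of all tested genes) and 0 were downregulated. At an unadjusted p under 0.05 in edgeR, 6 were higher and 5 lower, against 15.8% and 7.79% of all tested genes, and DESeq2 called 1 downregulated. The median log2 fold change of the 30 was 0.05 and the range -1.15 to 2.57. The neighbour called was 4930412C18Rik, a gene of unnamed product 318894 bases from Clvs1, which rose from 0.0971 ± 0.00752 to 0.588 ± 0.0368 CPM (SD, n = 3; adjusted p = 0.0044, edgeR). Chtf18, Moxd1 and Chd7 passed the adjusted p and changed by less than 2-fold.

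For all 5 members the nearest tested gene ran toward the member from the other strand, and for Msln, Bglap3 and Clvs1 it lay within 283 bases or overlapped the member. Mslnl, a mesothelin-like gene whose end lies 283 bases from that of Msln, reached 34.0, 87.9 and 64.1 CPM among controls and 18.6, 31.0 and 34.0 CPM among Dnmt1Δ/Δep libraries. The groups met at about 34 CPM, and the log2 fold change of -1.15 was not called (adjusted p = 0.096, edgeR). It was called in the fit that pairs libraries by replicate number (log2 fold change -1.10, adjusted p = 0.012, edgeR), and without control replicate 1 it was -1.45 (adjusted p = 0.016, edgeR). No setting gave Mslnl a rise, while the Msln gene next to it had its 24.2-fold difference.

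Paqr6, which encodes a progestin and adipoQ receptor and ends 75 bases from Bglap3, had 0.921 ± 0.486 CPM in controls and 0.937 ± 0.129 CPM in Dnmt1Δ/Δep cells (SD, n = 3; adjusted p = 0.98, edgeR). Its log2 fold change of 0.04 turned to -0.35 without control replicate 1. Asph, the aspartate beta-hydroxylase gene that overlaps the end of Clvs1, had 56.5 ± 14.1 and 68.5 ± 6.35 CPM (n = 3, SD; log2 fold change 0.28, adjusted p = 0.42, edgeR).

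The nearest tested genes not yet described also missed the call. Next to Dpep1, Chmp1a (a subunit of the ESCRT-III membrane machinery, 2452 bases away) had a log2 fold change of -0.06 and Sult5a1 (a sulfotransferase, 27927 bases away) one of 0.68. Next to Enpp1, Ccn2, which encodes connective tissue growth factor, lies 39231 bases away and had 54.3 ± 11.6 and 98.2 ± 26.9 CPM (n = 3, SD; log2 fold change 0.85, adjusted p = 0.058, edgeR). Ccn2 was called upregulated without control replicate 1 (log2 fold change 1.04, adjusted p = 0.027, edgeR). Narfl beside Msln and Pmf1 beside Bglap3 had log2 fold changes of -0.39 and -0.31, and Chd7 beside Clvs1 one of 0.72.

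**Figure D2:**
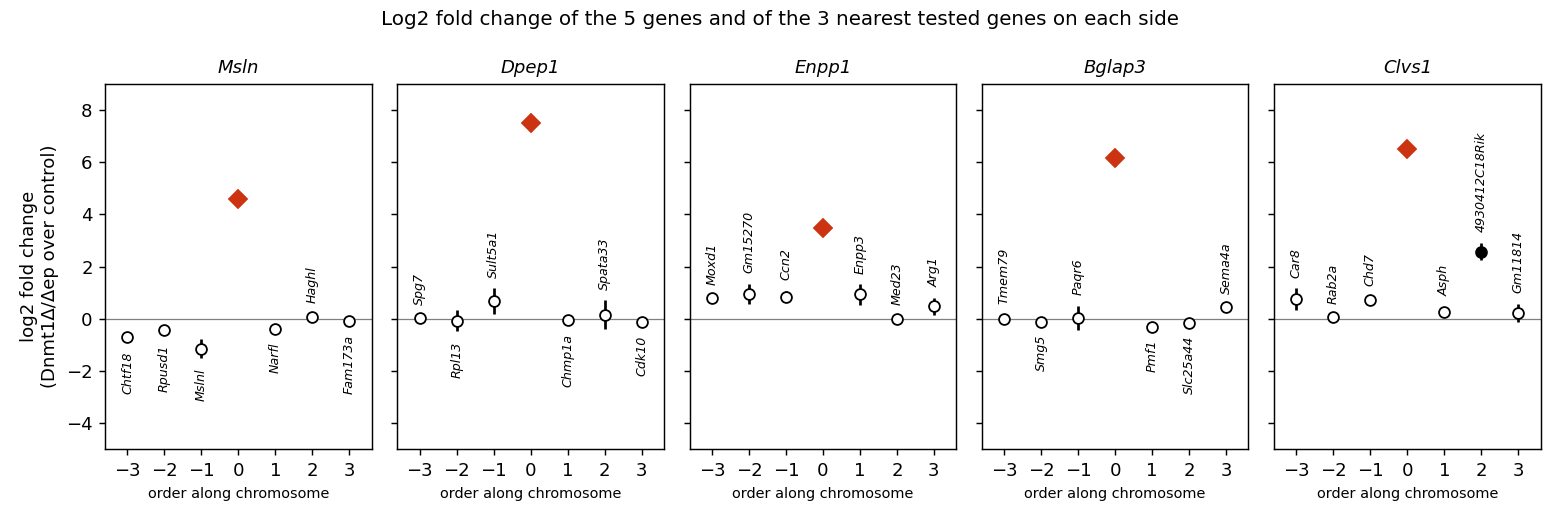
Log2 fold change (Dnmt1Δ/Δep over control) of each member (red diamond) and of the 3 nearest tested genes on either side (circles), in their order along the chromosome and not to scale of distance. Bars are standard errors of the edgeR fit, and the filled circle, 4930412C18Rik at 2.57, is the 1 neighbour called upregulated.

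Genes related to the members by family or pathway were taken from 6 lists. The lists held 99 genes with a row of counts and 81 that were tested, of which 5 were upregulated (6.17%, against 6.03% of all tested genes) and 0 downregulated. At an unadjusted p under 0.05 in edgeR, 13 were higher and 6 lower, against 15.8% and 7.79% of all tested genes. DESeq2 called 3 downregulated. The same shares of all tested genes stand beside the counts of single lists below. Their median log2 fold change was 0.05. The 5 upregulated genes were Strc, Dpep3, Ggt7, Entpd3 and P2ry2. With the replicate block the same count of 5 was upregulated and 3 were downregulated: Mslnl, Sec14l4 (log2 fold change -1.23, adjusted p = 0.041, edgeR) and Prrg3 (-1.01, adjusted p = 0.015, edgeR), the last pair named after their values were seen.

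Among the relatives of mesothelin, 1 of 4 tested genes was upregulated (1 higher and 1 lower at an unadjusted p under 0.05 in edgeR). Strc encodes stereocilin, a mesothelin-like protein of inner ear hair bundles, and had 0, 2 and 1 reads in the control libraries. In the Dnmt1Δ/Δep libraries it had 75, 40 and 92 reads, or 1.26, 0.463 and 0.780 CPM. With a limit of 3 reads per control library, their mean of 0.833 ± 0.401 CPM (SD, n = 3) was at least 21.1-fold higher (adjusted p = 0.0044, edgeR). Muc16, the ligand of mesothelin, was not analysed here.

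Among 16 tested genes of dipeptidases, glutathione turnover and leukotrienes, Dpep3 and Ggt7 were upregulated (12.5%, against 6.03% of all tested genes). At an unadjusted p under 0.05 in edgeR, 3 of the 16 were higher and 1 lower. Dpep3, the relative of Dpep1 known from testis, had 0, 1 and 0 reads in control libraries and 124, 223 and 503 reads in Dnmt1Δ/Δep libraries. The Dnmt1Δ/Δep values were 2.08, 2.58 and 4.26 CPM, and their mean of 2.97 ± 1.14 CPM (SD, n = 3) was at least 75.4-fold higher than in controls at a limit of 3 reads per control library (adjusted p = 5.2e-04, edgeR). Dpep2, which lies beside Dpep3 on chromosome 8, had 0.189 ± 0.0837 and 0.148 ± 0.0353 CPM (SD, n = 3; adjusted p = 0.73, edgeR). Thus Dpep1 and Dpep3 were both near 0 in the controls and both had reads in every Dnmt1Δ/Δep library, and Dpep2 was low in all 6 libraries. Ggt7, a member of the gamma-glutamyltransferase family, rose from 0.346 ± 0.0615 to 1.38 ± 0.142 CPM (n = 3, SD), by 1.98 on the log2 scale (adjusted p = 0.0059, edgeR).

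The promoter window of Dpep3 is given for comparison with that of Dpep1, with CpG in capitals as before. It lies at chr8:105979370-105979669 on the minus strand and holds 12 CpG, and it resembled no other window at the limit used above.
Dpep3: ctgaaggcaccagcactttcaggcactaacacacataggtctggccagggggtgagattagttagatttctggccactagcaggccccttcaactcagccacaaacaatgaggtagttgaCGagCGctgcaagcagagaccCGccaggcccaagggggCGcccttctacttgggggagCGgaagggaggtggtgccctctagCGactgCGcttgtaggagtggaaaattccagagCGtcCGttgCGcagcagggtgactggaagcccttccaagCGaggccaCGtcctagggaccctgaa

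Enpp1 acts on extracellular nucleotides, and 2 of 20 tested genes of ectonucleotidases, purine receptors, pyrophosphate and cGAMP were upregulated (10%, against 6.03% of all tested genes). At an unadjusted p under 0.05 in edgeR, 7 of the 20 were higher and 0 lower, against 15.8% and 7.79% of all tested genes. Their median log2 fold change was 0.32. Entpd3, an ectonucleotidase that also degrades ATP outside the cell, had 1.95, 0.708 and 0.689 CPM in controls and 8.14, 6.89 and 4.98 CPM in Dnmt1Δ/Δep libraries. All Dnmt1Δ/Δep values were above all control values (log2 fold change 2.57 with standard error 0.45, adjusted p = 0.014, edgeR). The call was lost without Dnmt1Δ/Δep replicate 1 or control replicate 2 (adjusted p = 0.059 for each, edgeR) and without Dnmt1Δ/Δep replicate 2 (adjusted p = 0.050, edgeR), where the log2 fold change lay between 2.31 and 2.49. P2ry2, a receptor for extracellular ATP and UTP, rose from 5.51 ± 1.20 to 15.9 ± 1.97 CPM (n = 3, SD), by 1.52 on the log2 scale (adjusted p = 0.0043, edgeR).

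Of the other Enpp genes tested, 0 were called by edgeR or DESeq2, and 1 (Enpp2) was higher at an unadjusted p under 0.05 in edgeR. Enpp2, which makes lysophosphatidic acid, had 2.44 ± 0.685 and 4.74 ± 0.610 CPM (n = 3, SD; log2 fold change 0.96, adjusted p = 0.058, edgeR). Enpp3, which lies 60247 bases from Enpp1 on the same strand, had 0.192 ± 0.0658 and 0.362 ± 0.0613 CPM (n = 3, SD; log2 fold change 0.93, adjusted p = 0.22, edgeR). Both were thus short of the 11.2-fold ratio of Enpp1. Enpp4 (9.78 and 11.4 CPM, log2 fold change 0.23) and Enpp5 (1.54 and 1.49 CPM, log2 fold change -0.04) were not called either, and Enpp7 had no read in any library. Cgas and Tmem173, which make and sense cGAMP, the other substrate of Enpp1, had 3.45 and 9.31 CPM in controls and 3.44 and 8.58 CPM in Dnmt1Δ/Δep cells (adjusted p = 0.99 and 0.74, edgeR). They were singled out after their values were seen.

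The other osteocalcin genes stayed near 0 reads. Bglap, the osteocalcin gene of bone, had 1 read in each control library and 4, 2 and 2 reads in the Dnmt1Δ/Δep libraries. Bglap2 had 0, 0 and 5 reads against 7, 6 and 2. Both were too low to test, in the libraries where 3708 to 5817 reads fell on Bglap3. Of the 50-base stretches in Bglap3 transcripts, 11.5% also occur in another gene, chiefly Bglap2 and Bglap, whereas 88.2% of those in Bglap2 and 56.6% of those in Bglap are shared within the cluster. Only reads that mapped uniquely were counted, so reads from the shared part of Bglap and Bglap2 may be missing from these counts. Among 9 tested genes of other Gla proteins and of the vitamin K cycle that serves them, edgeR called 0 (0 higher and 2 lower at an unadjusted p under 0.05), and DESeq2 called 1, Prrg3, downregulated. Gprc6a, proposed as a receptor for osteocalcin, had no read in any library.

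Clvs2, the close relative of Clvs1, had 2 reads in Dnmt1Δ/Δep replicate 1 and 0 reads in the other libraries. Among 12 tested genes of Sec14-type proteins, clathrin and the kinase complex for the lipid that clavesins bind, edgeR called 0 (0 higher and 2 lower at an unadjusted p under 0.05), and DESeq2 called 1, Sec14l4, downregulated. Msln and Dpep1 need a GPI anchor, and of 20 genes for making and attaching it all were tested and 0 were called by edgeR or DESeq2 (2 higher and 0 lower at an unadjusted p under 0.05 in edgeR). The GPI anchor genes had a median log2 fold change of 0.10, and their sum was 987 to 1022 CPM in controls and 1058 to 1100 CPM in Dnmt1Δ/Δep libraries.

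**Figure D3:**
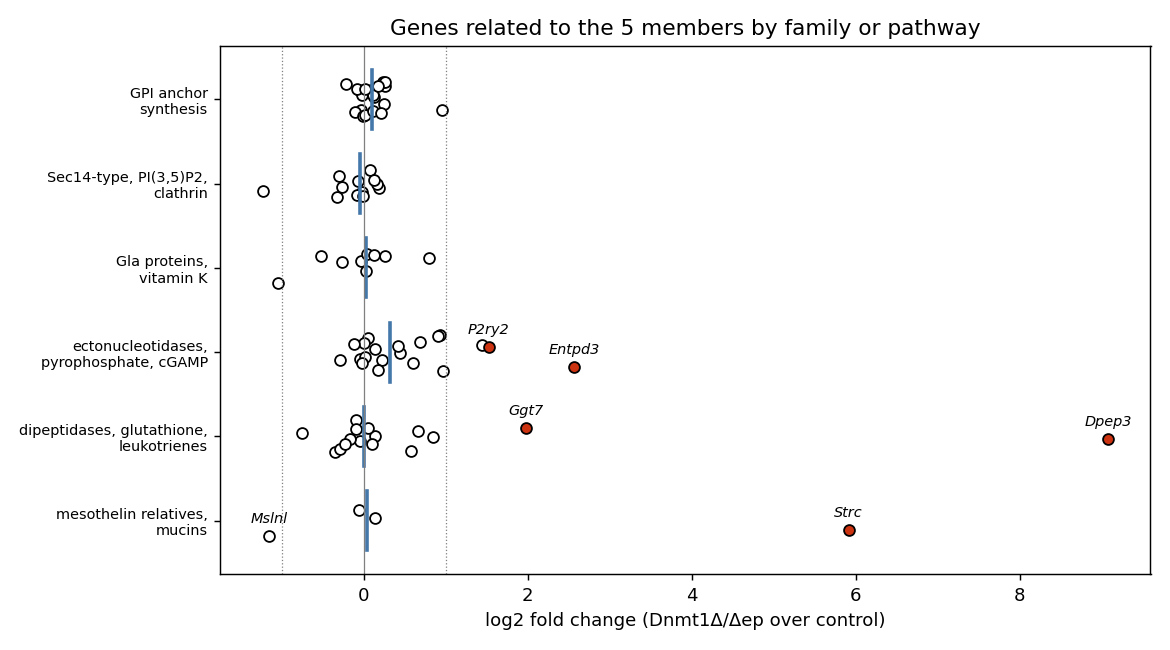
Log2 fold change (Dnmt1Δ/Δep over control) of the 81 tested genes of 6 lists, 1 circle per gene with random vertical shift, with the median of each list as a blue line and dotted lines at 1 and -1. Red circles are the 5 genes called upregulated, and the fitted values of Dpep3 and Strc rest on control libraries with at most 2 reads and are not exact.

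The promoter windows of the members differed in their number of CpG. The 22 CpG of Enpp1 exceeded 76.9% of the 32851 windows in the table, while the 9 CpG of Dpep1 exceeded 54.2% and the 7 or 8 of Bglap3 exceeded 47.9% or 51.4%. Tested genes with 1 window had a median of 20 CpG (n = 9268), genes called upregulated a median of 8 (n = 585) and genes called downregulated a median of 10 (n = 34). Dpep1 and Bglap3 were thus near the median of upregulated genes and Enpp1 near that of all tested genes. Among the upregulated relatives, Strc had 5 CpG, Dpep3 12, Ggt7 13, Entpd3 15 and P2ry2 28 or 30. Methylation itself was not measured in these files.

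**Figure D4:**
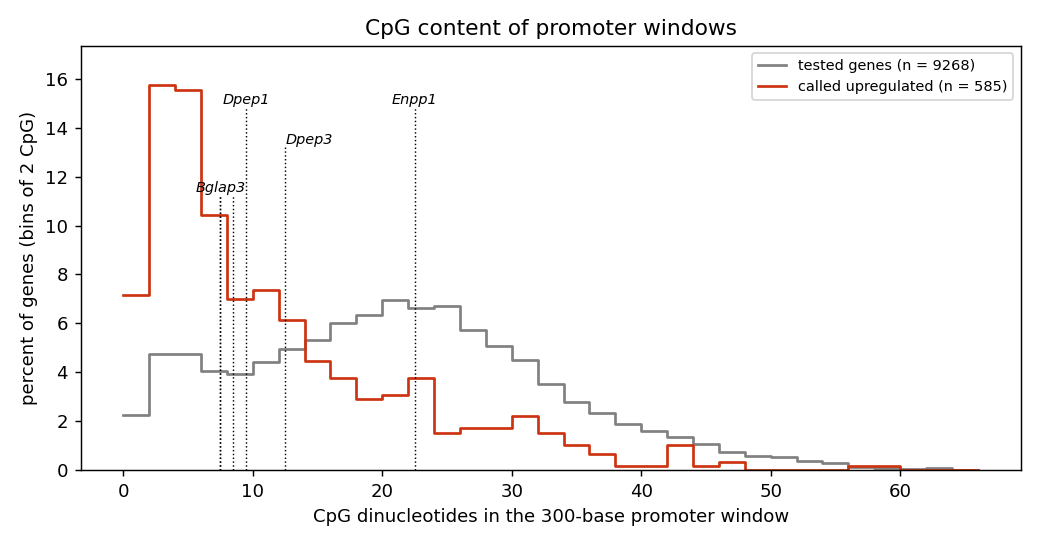
Share of genes by CpG count of their promoter window (bins of 2 CpG, 300-base windows) for tested genes with 1 window (grey, n = 9268) and for those called upregulated (red, n = 585). Dotted lines mark Dpep1 at 9, Bglap3 at 7 and 8, Dpep3 at 12 and Enpp1 at 22 CpG.

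The windows were also searched on both strands for 4 short motifs. CCAAT was found in all 3 windows of Bglap3 and in 37.4% of all windows. GGGCGG, the GC box, was found in the window of Enpp1 and in 35.7% of all windows. TATAAA (13.6% of all windows) and CACGTG (7.15%) were in none of the windows of Dpep1, Enpp1 and Bglap3. These are matches of letters and not measured binding sites.

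The genes whose levels ran most like those of each member over the 6 libraries were found by Pearson's correlation of log2(CPM + 0.1), a description that mostly reflects the difference between 2 groups. The closest to Msln were St6gal1, a sialyltransferase gene (r = 0.9987), Snx20 and Kcnb2. For Dpep1 they were 1700018A04Rik (r = 0.99996), Card6 and Slc25a21. Enpp1 and Clvs1 shared Tuba3a, an alpha-tubulin gene (r = 0.9997 for Enpp1), and 1700029P11Rik (r = 0.9998 for Clvs1) among their closest 3, with Gm11427 as the other for Enpp1 and Tuba3b for Clvs1. For Bglap3 they were Noct, AI481877 and Clec2g. Of these, Noct, which encodes nocturnin (r = 0.9999), was the most abundant at 40.9 ± 5.09 CPM in controls and 235 ± 14.4 CPM in Dnmt1Δ/Δep cells (SD, n = 3). Between 103 genes for Msln and 174 for Dpep1 reached a correlation of 0.99, so these names are few out of many.

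Markers of the cell types in which the members are usually found were read beside them. Keratinocyte markers summed to between 34070 and 37496 CPM in controls and to between 25608 and 26609 CPM in Dnmt1Δ/Δep libraries, and Krt5 and Krt14 were the most abundant of the 12 in all 6 libraries. Of these 12, edgeR called 0 (2 higher and 4 lower at an unadjusted p under 0.05), and DESeq2 called 2 upregulated and 2 downregulated. Of 10 mesothelial markers 6 had enough reads to be tested. Of these, Upk1b, Krt8 and Krt18 were upregulated (50%, against 6.03% of all tested genes). At an unadjusted p under 0.05 in edgeR 5 were higher, against 15.8% of all tested genes. DESeq2 called 5 upregulated (also Krt19 and Gpm6a), and the median log2 fold change of the 6 was 1.71. The sum of the 10 was 65.2 to 80.7 CPM in controls and 133 to 198 CPM in Dnmt1Δ/Δep libraries. The 4 markers not tested had few reads: Upk3b had 34 reads, Wt1 23, Lrrn4 11 and Calb2 5 over the 3 Dnmt1Δ/Δep libraries, in which Msln had 65758.

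For Bglap3, 4 of 9 osteoblast markers had enough reads to be tested. Of these, edgeR called 1 upregulated (25%, against 6.03% of all tested genes) and DESeq2 called 0. At an unadjusted p under 0.05 in edgeR 3 were higher, and the median log2 fold change of the 4 was 1.17. The 9 summed to 23.2 to 30.6 CPM in controls and to 35.9 to 53.5 CPM in Dnmt1Δ/Δep libraries. Among them, Runx2 had a mean of 19.2 CPM in controls and 30.0 CPM in Dnmt1Δ/Δep libraries (log2 fold change 0.65, adjusted p = 0.031, edgeR), which is less than 2-fold. Sp7 had 33 reads, Dmp1 and Sost 1 read each and Ibsp 0 reads over the Dnmt1Δ/Δep libraries. For Dpep1, 8 proximal tubule markers summed to 0.877 to 1.14 and 1.63 to 3.69 CPM, edgeR called 0 of them (1 higher at an unadjusted p under 0.05), DESeq2 called 1 (Cubn) upregulated, and Kap had 0 reads in all libraries. For Clvs1, a gene known from neurons, 8 neuronal markers summed to 43.9 to 66.2 and 58.6 to 68.7 CPM, with 0 called by edgeR or DESeq2 and 0 at an unadjusted p under 0.05.

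Markers of leukocytes, melanocytes and fibroblasts, cells that can come with an epidermal preparation, were read as well. Of 9 leukocyte markers 3 had enough reads to be tested (Csf1r, Itgam and S100a8). All 3 were upregulated by edgeR and by DESeq2, against 6.03% of all tested genes in edgeR. Too few reads for a test fell on Ptprc, Lyz2, Adgre1, Cd3e, Cd207 and Ly6g, and whether leukocytes were more frequent was not tested. The 9 had sums of 24.4 to 58.4 CPM in controls and 95.0 to 135 CPM in Dnmt1Δ/Δep libraries, and Ptprc, which marks all leukocytes, had 2 reads in the controls and 13 in the Dnmt1Δ/Δep libraries. The 7 melanocyte markers summed to 224 to 573 and 688 to 912 CPM, and edgeR called 0 of them (4 higher at an unadjusted p under 0.05) while DESeq2 called 1 (Tyrp1) upregulated. The 8 fibroblast markers overlapped between the groups, at 17.3 to 34.1 and 16.0 to 67.9 CPM, and 0 were called by edgeR or DESeq2 (2 higher at an unadjusted p under 0.05 in edgeR). The part of these cells in the reads of the 5 members was not tested.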

How the data were processed

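Keratinocyte RNA of 3 control and 3 Dnmt1Δ/Δep mice was sequenced. Per the labels and methods, the authors trimmed adapters, removed ribosomal reads, used STAR for alignment and htseq-count on reads with a single position. The deposited values are counts without normalization. The labels name GRCm38 and the methods a human build, so GENCODE M21 positions (GRCm38) only describe the genes. Strand use in counting is not given in the sources used here. The 5 entries without a gene (8.73% to 12.9% of reads) were left out. Repeat counts and the 2 tables of the authors' comparisons (fold changes and p-values) were not used.

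Counts were compared with edgeR 4.0.16 in R 4.3.3 (quasi-likelihood test, TMM factors 0.980 to 1.02, filterByExpr with minimum counts of 10 and 15, no block), after the steps were tested on simulated data. Standard errors are the size of the fold change (log2) divided by the root of its F statistic. A count of 0 allows up to 3 counts (0.0254 to 0.0558 CPM), and such limits cover counting error only. DESeq2 1.42.0, its size factors, no filter, a mean RPKM of at least 1, the replicate block, a prior count of 2 and leaving out each library were alternatives. Equal replicate numbers shared a lane, and their deviations from group means correlated at 0.45, 0.31 and 0.30. What else such libraries shared is not given. The reported calls do not use this pairing, which enters only the replicate block and the ratios within pairs. Promoter windows are RefSeq's and were compared with BLAST 2.17.0. Figures were drawn with Python 3.11.15 and matplotlib 3.10.9.

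The members, related genes and markers were chosen with earlier results of these data known. Genes named are the members, Dnmt1, their closest relatives, every called gene of the lists, the nearest tested neighbour on each side, every called neighbour, and the 3 genes most correlated with each member. A further osteoblast marker is not reported here.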

Additional observations from a re-analysis of the deposited data

How the results depend on the processing

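The fitted log2 fold changes of the 5 members kept their direction in all 12 alternatives, from 3.39 to 3.52 for Enpp1 and 4.46 to 4.75 for Msln up to 7.07 to 7.75 for Dpep1, whose lowest value came with the prior count of 2. Counts of called genes depended more on the settings. Upregulated genes, 1014 as reported, numbered 1393 with DESeq2, 1294 without a filter and 1173 with the replicate block. They numbered 394 when 11407 genes at 1 RPKM or above in either group were kept. With 1 library left out they numbered 559 to 1183 (591 without Dnmt1Δ/Δep replicate 1 and 559 without the control library of replicate 2). Downregulated genes, 66 as reported, numbered 122 with DESeq2, 107 without a filter, 95 with the replicate block and 35 at that RPKM. With 1 library left out they numbered 15 to 180 (180, 15 and 33 without control replicates 1, 2 and 3, and 15, 25 and 42 without Dnmt1Δ/Δep replicates 1, 2 and 3). Of the related genes, 3 were upregulated at that RPKM (fewer genes were tested) and 4 to 5 without 1 library, and 3 were downregulated with DESeq2, without a filter or with the replicate block, and 0 to 3 without 1 library (3 without control replicate 1). Of the neighbours, 0 were upregulated at that RPKM and 1 to 2 without 1 library (2 without control replicate 1), and 1 (Mslnl) was downregulated with DESeq2, without a filter or with the block, and 0 to 1 without 1 library (1 without control replicate 1). Directions that turned were of genes not called. Without 1 library, Dpep2 ranged from -0.56 to 0.093 (above 0 without control replicate 1), Enpp5 from -0.23 to 0.086 (above 0 without Dnmt1Δ/Δep replicate 2 or control replicate 3), Chmp1a from -0.19 to 0.0096 (above 0 without Dnmt1Δ/Δep replicate 1 or control replicate 2) and Paqr6 from -0.35 to 0.30 (below 0 without control replicate 1 or Dnmt1Δ/Δep replicate 3, and -0.0024 without a filter). The cause of these differences was not tested. Among the named related genes and neighbours, pairing by replicate number changed no other call than those of Mslnl, Sec14l4 and Prrg3. Ratios against control libraries with few reads, above all those of Dpep1, are limited by depth, and the 3 mice per group are the only measure of spread.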
